A study of Mus musculus with 7 samples.

Results

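The genes of fatty acid and cholesterol synthesis were examined in erythroblasts that lack functional Sod2, the manganese superoxide dismutase that works inside mitochondria. The group comprised a list of 33 named genes: the enzymes that make and modify fatty acids, the enzymes that lead to cholesterol, the SREBP transcription factors with the proteins that escort or retain them, and a sterol carrier. All 33 were measured, out of 18193 genes with a probe set (a group of short probes against 1 transcript region) of their own on the array. RNA came from Sod2-/- erythroblasts (replicates 31, 35 and 39, n = 3) and Sod2+/+ erythroblasts (replicates 17, 29, 33 and 37, n = 4).

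The donors were fetal liver cells of Sod2-/- or Sod2+/+ littermates, taken at up to embryonic day 16.5, from heterozygous B6-Sod2tm1Cje crosses (Ly5.2). Recipients of both genotypes' cells were Ly5.1 congenic C57BL/6 mice, 11 to 15 weeks old, irradiated with 1050 rad. In Sod2-/- donors the mutation was in the germline, so that every blood cell derived from them carried it. By the study's account the mutant gene lacks an exon and still gives an mRNA, which is nonfunctional. TER-119+ CD71+ cells of medium to high forward scatter were then sorted from the marrow at a viability of at least 92%. The gate described has no step on the Ly5 marker, so remaining host cells were not removed by it. The sources used here do not say whether each array held the RNA of a separate mouse, and the p-values cover the spread between these samples and no more.

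Fatty acid synthesis starts from citrate exported by mitochondria. Its acetyl-CoA is carboxylated to malonyl-CoA and joined by fatty acid synthase into palmitate, which elongases lengthen and desaturases bend. Cholesterol is built from the same acetyl-CoA through mevalonate, isoprenoid units and squalene, and the genes of both routes share the SREBP factors, which SCAP carries out of the endoplasmic reticulum when sterols are low and INSIG proteins retain there when sterols are high. Mature red cells make neither lipid from acetyl-CoA, so the membrane of the red cell is laid down largely before the nucleus and mitochondria are lost.

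Values are log2 expression values as deposited, on which a difference of 1 is a 2-fold difference. Array medians ran from 4.45 to 4.537. On the brightest Sod2 probe set the Sod2-/- arrays had 8.47, 8.09 and 8.61 and the Sod2+/+ arrays 8.32, 8.62, 8.20 and 8.59, which do not check the genotype, since by the study's account probe sets of this gene can lie outside the deleted part. Erythroblast markers were bright (10 of 12 listed were measured, each with a mean above 6), and 0 of the 10 passed the test between genotypes (median log2 fold change 0.07). Their summed linear levels were 37219 to 41643 in Sod2-/- and 36678 to 38060 in Sod2+/+ samples. Of the markers of erythroid stage, all 6 late erythroblast markers measured had log2 fold changes at or above 0 (median 0.15) with 0 called. Of 6 early progenitor markers 1 was lower, Myb (log2 fold change -1.24, limma adjusted p = 0.0303, and -1.25 on a second probe set). The probes of its first probe set can match other transcripts. The other early markers were not called, at 0.21 (Hlf), 0.10 (Kit), -0.01 (Cd34), -0.06 (Gata2) and -0.12 (Myc). Markers of other marrow cells differed between arrays: 5 of 8 B cell markers were lower in Sod2-/- samples (summed linear levels 262 to 298 in Sod2-/- and 468 to 616 in Sod2+/+ samples), all 10 neutrophil markers had negative log2 fold changes with 0 called (sums 16384 to 34050 in Sod2-/- and 34229 to 42762 in Sod2+/+), and 0 of 9 macrophage markers passed although Sod2-/- replicate 39 was high in C1qa, C1qb and C1qc (7.65, 8.09 and 8.33, against at most 4.68 in the other 2 Sod2-/- samples and 4.58 in Sod2+/+ samples). Neutrophil markers were about as bright as erythroblast markers, with means up to 12.85 (S100a9) beside 13.06 (Alas2). Values given below for erythroblasts are therefore those of the whole sorted sample. The part of other marrow cells and of erythroid stage in the results below was not tested.

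Across the 33 genes the change was small and mostly downward, and 2 of them, Scd1 and Fasn, passed the test. By limma (adjusted p under 0.05 over all probe sets) 2 of 33 members were lower in Sod2-/- erythroblasts, or 6.06%, where 4.47% of all genes were lower. None was higher, where 0.412% of all genes were. A further 6 of the 33 had a raw p under 0.05 and a negative difference, which makes 8 of 33 (24.2%) against 18.4% of all genes. In 6 of 33 members (18.2%) all Sod2-/- arrays lay below all Sod2+/+ arrays, where 14.8% of all genes did; in 0 did they all lie above, where 7.19% of all genes did. These shares are near those of all genes. The fold changes were below 0 in 28 of 33 members (84.8%), against 45.8% of all genes, with a median log2 fold change of -0.15 beside 0.02 over all genes.

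Brighter genes lay lower in Sod2-/- samples in general, so the medians were also compared within ranges of brightness. Among members with a mean log2 value from 6 to 7 the median fold change was -0.25 (11 genes), beside -0.15 for all genes of that brightness. From 5 to 6 it was -0.26 (8 genes) beside 0.03, and from 4 to 5 it was -0.03 (10 genes) beside 0.06. From 7 to 8 the order turned, with -0.04 for 4 members beside -0.28 for all genes.

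**Figure D1:**
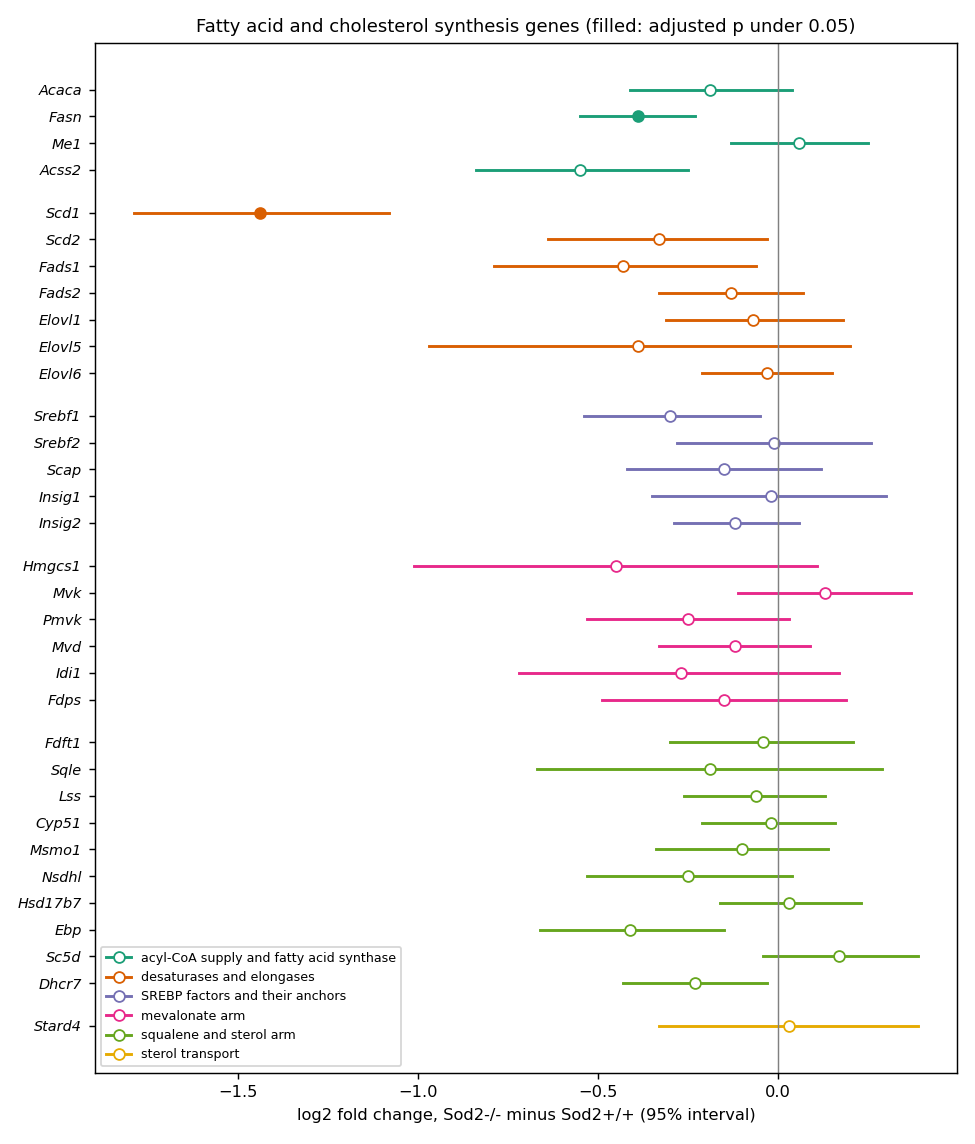
Log2 fold change (Sod2-/- minus Sod2+/+, horizontal axis) of each of the 33 genes, grouped and coloured by role, with the 95% interval of the limma fit as a line. Filled points, Scd1 at -1.44 and Fasn at -0.39, passed an adjusted p of 0.05, and 25 of the 33 intervals include 0.

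The enzymes that supply acyl-CoA and build palmitate had 1 of 4 members lower (25%, where 4.47% of all genes were lower). In so short a list 1 gene sets the share. The median log2 fold change was -0.29. Fasn (chromosome 11), the fatty acid synthase itself, had 6.03, 6.02 and 6.14 in Sod2-/- replicates 31, 35 and 39 (log2 values), against 6.52, 6.41, 6.37 and 6.52 in Sod2+/+ replicates 17, 29, 33 and 37. The groups did not overlap, and the samples within each lay close together, at a mean of 6.06 ± 0.07 in Sod2-/- erythroblasts and of 6.45 ± 0.08 in Sod2+/+ erythroblasts (SD, n = 3 and n = 4). Fasn was 1.31-fold lower (log2 fold change -0.39, SE 0.07, 95% interval -0.55 to -0.23, limma adjusted p = 0.0297), on its only probe set. This call was fragile: it held in 1 of 7 fits that left out an array, the one without Sod2+/+ replicate 33 (adjusted p = 0.0373), and was lost without Sod2-/- replicate 31, 35 or 39 or Sod2+/+ replicate 17, 29 or 37, with adjusted p up to 0.108. Quantile normalization also ended it (log2 fold change -0.26, adjusted p = 0.0832).

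Acss2 (chromosome 2), which makes acetyl-CoA from acetate in the cytosol, had 5.15, 4.96 and 4.97 in Sod2-/- samples and 5.63, 5.88, 5.32 and 5.46 in Sod2+/+ samples. Its groups did not overlap, and it missed the threshold (log2 fold change -0.55, SE 0.13, 95% interval -0.84 to -0.25, adjusted p = 0.0587). A second, dimmer probe set of Acss2 gave -0.36 (adjusted p = 0.0579), and the third gave -0.01. Acaca (chromosome 11), the acetyl-CoA carboxylase that makes malonyl-CoA, had 5.70, 5.86 and 5.98 in Sod2-/- and 6.06, 5.84, 6.05 and 6.18 in Sod2+/+ erythroblasts. These values overlapped (log2 fold change -0.19, adjusted p = 0.351). A dimmer second probe set of Acaca gave 0.11. Me1, the cytosolic malic enzyme that supplies NADPH, was at 0.06 (adjusted p = 0.758).

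The start sites of Fasn and Acss2 are shown because these genes carried the lower values of the first arm. That of Hmgcs1 is added because, of the 26 members with a window, it alone held the sterol regulatory element searched for. The sequences are RefSeq windows of build GRCm38.p6, from 250 bases before to 50 after the start, 5′ to 3′ on the gene's strand: chr11:120824498-120824797 (minus strand), chr2:155517793-155518092 (plus) and chr13:119690101-119690400 (plus). Capitals mark the letters TCACNCCAC (a sterol regulatory element), CCAAT (the box bound by NF-Y) and GGGCGG (the GC box bound by Sp1), on either strand.
Fasn: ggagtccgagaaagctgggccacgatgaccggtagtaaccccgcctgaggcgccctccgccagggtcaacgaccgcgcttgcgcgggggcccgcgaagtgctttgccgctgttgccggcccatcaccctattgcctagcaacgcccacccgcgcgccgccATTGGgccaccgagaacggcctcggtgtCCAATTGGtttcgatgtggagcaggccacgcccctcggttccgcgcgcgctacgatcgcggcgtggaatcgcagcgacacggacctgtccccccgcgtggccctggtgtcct
Acss2: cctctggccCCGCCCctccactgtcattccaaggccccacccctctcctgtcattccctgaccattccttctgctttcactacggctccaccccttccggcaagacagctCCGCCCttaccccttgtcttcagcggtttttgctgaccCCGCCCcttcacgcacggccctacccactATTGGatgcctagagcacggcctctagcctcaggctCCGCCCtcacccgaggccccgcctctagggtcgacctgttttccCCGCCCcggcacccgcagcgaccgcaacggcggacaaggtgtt
Hmgcs1: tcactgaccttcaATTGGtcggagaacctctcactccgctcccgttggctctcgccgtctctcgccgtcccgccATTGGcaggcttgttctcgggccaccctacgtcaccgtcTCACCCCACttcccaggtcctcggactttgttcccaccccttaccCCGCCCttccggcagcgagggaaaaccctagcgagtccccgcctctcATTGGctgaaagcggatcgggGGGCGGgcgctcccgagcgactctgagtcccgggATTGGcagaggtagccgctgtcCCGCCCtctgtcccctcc
In the Fasn window CCAAT occurred 3 times, a pair of them overlapping on opposite strands. The Acss2 window held 1 CCAAT and 5 GC boxes, and the Hmgcs1 window held 1 sterol regulatory element, 4 CCAAT and 3 GC boxes. A window was at hand for 26 of the 33 members. Members without a window, among them Scd1, Scd2, Fads1, Fdps, Fdft1 and Sqle, could not be searched. CCAAT was found in 22 of the 26 (84.6%), against 42% of the 14452 array genes with a window, GGGCGG in 21 (80.8%) against 57.3%, and TCACNCCAC in 1 (3.85%) against 1.46%. A match of letters describes the window and is not a measured site.

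The desaturases and elongases held the largest change of the group. All 7 had negative log2 fold changes (median -0.33), and 1 of 7 was called (14.3%, where 4.47% of all genes were lower). Scd1 (chromosome 19), the stearoyl-CoA desaturase that makes oleate and palmitoleate from saturated chains, was at 5.93, 6.34 and 5.78 (log2) in Sod2-/- replicates 31, 35 and 39, against 7.28, 7.78, 7.40 and 7.38 in Sod2+/+ replicates 17, 29, 33 and 37. The highest Sod2-/- sample lay below the lowest Sod2+/+ sample by more than the SD of either group (0.29 in Sod2-/- and 0.22 in Sod2+/+). Scd1 was 2.71-fold lower (log2 fold change -1.44, SE 0.16, 95% interval -1.79 to -1.08, limma adjusted p = 0.00848), the 19th lowest log2 fold change of 18193 genes.

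The Scd1 call held in all 7 fits that left out an array, with adjusted p from 0.0128 to 0.0347. It also held after quantile normalization (log2 fold change -1.26, adjusted p = 0.00716). With fluidics station as a block the log2 fold change was -1.43 (adjusted p = 0.0188). Within station 1 alone it was -1.59 (adjusted p = 0.543), a comparison of 1 Sod2-/- array with 2 Sod2+/+ arrays, and within station 2 alone -1.33 (adjusted p = 0.148), with 2 arrays of each genotype. One chip lot held both genotypes, with Sod2-/- replicate 35 as its only Sod2-/- array. With lot as a block the estimate therefore rested on that array against the 4 Sod2+/+ arrays, as did the fit within that lot, and both gave -1.11 (adjusted p = 0.0374 and 0.0537); such fits assume that the lone array varies like the others. The kind of test named in the study's methods, run on the 3 Sod2-/- and 4 Sod2+/+ arrays used here, which are fewer than the study compared, did not call Scd1 (adjusted p = 0.180 with equal and 0.326 with unequal variances), and it called 2 and 0 genes lower in all. The second Scd1 probe set was dim, with a mean of 3.61, under the median of 4.48 over all probe sets, and gave -0.18, so that the mean of both probe sets gave -0.81 (adjusted p = 0.0120).

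Several marker lists can be set beside Scd1, and their part in its change was not tested. The B cell markers had median deviations from the Sod2+/+ mean of -0.97, -0.77 and -0.59 in Sod2-/- replicates 31, 35 and 39. In these samples Scd1 was at 5.93, 6.34 and 5.78. Of the 8 B cell markers measured 5 were called, among them Cd79a and Cd79b at -1.78 and -1.58 (limma adjusted p = 0.00284 and 0.00543). Igll1 at -0.31 and Pax5 and Ebf1, both at -0.01, were not called. The 5 adipocyte markers measured averaged from 3.46 (Adipoq) to 5.75 (Retn) over the 7 arrays. All 5 had positive log2 fold changes, with 0 called. Their summed linear level was 116 to 137 in Sod2-/- and 106 to 120 in Sod2+/+ samples. The neutrophil markers had median deviations of -0.13, -1.50 and -0.74 in Sod2-/- replicates 31, 35 and 39, and the macrophage markers of 0.07, 0.15 and 0.69. The array measures RNA from the whole sorted sample, and fewer cells of a type cannot be told apart from less RNA per cell.

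The related Scd2 averaged 4.95 ± 0.28 in Sod2-/- and 5.28 ± 0.14 in Sod2+/+ samples (SD, n = 3 and 4), a log2 fold change of -0.33 that was not called (adjusted p = 0.219). Dimmer Scd2 probe sets gave 0.01 and 0.03. Fads1 and Fads2, the front-end desaturases of polyunsaturated fatty acids, gave -0.43 (adjusted p = 0.187) and -0.13 (adjusted p = 0.457). Their probe sets disagreed. A dimmer Fads2 probe set (mean 4.30) passed the test at -0.38 (adjusted p = 0.0402), and the second Fads1 probe set gave 0.12.

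Among the elongases, Elovl5, which extends polyunsaturated chains, spread most, on a probe set whose probes can match other transcripts. It had 5.59, 4.95 and 6.06 in Sod2-/- and 5.72, 5.79, 5.76 and 6.40 in Sod2+/+ samples, so that the log2 fold change of -0.39 was not called (adjusted p = 0.459). Sod2-/- replicate 35 lay far below the other samples and Sod2+/+ replicate 37 far above the other Sod2+/+ samples. Elovl6, which extends palmitate, was at -0.03 on a mean of 4.03, and Elovl1, of the very long saturated chains, at -0.07.

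**Figure D2:**
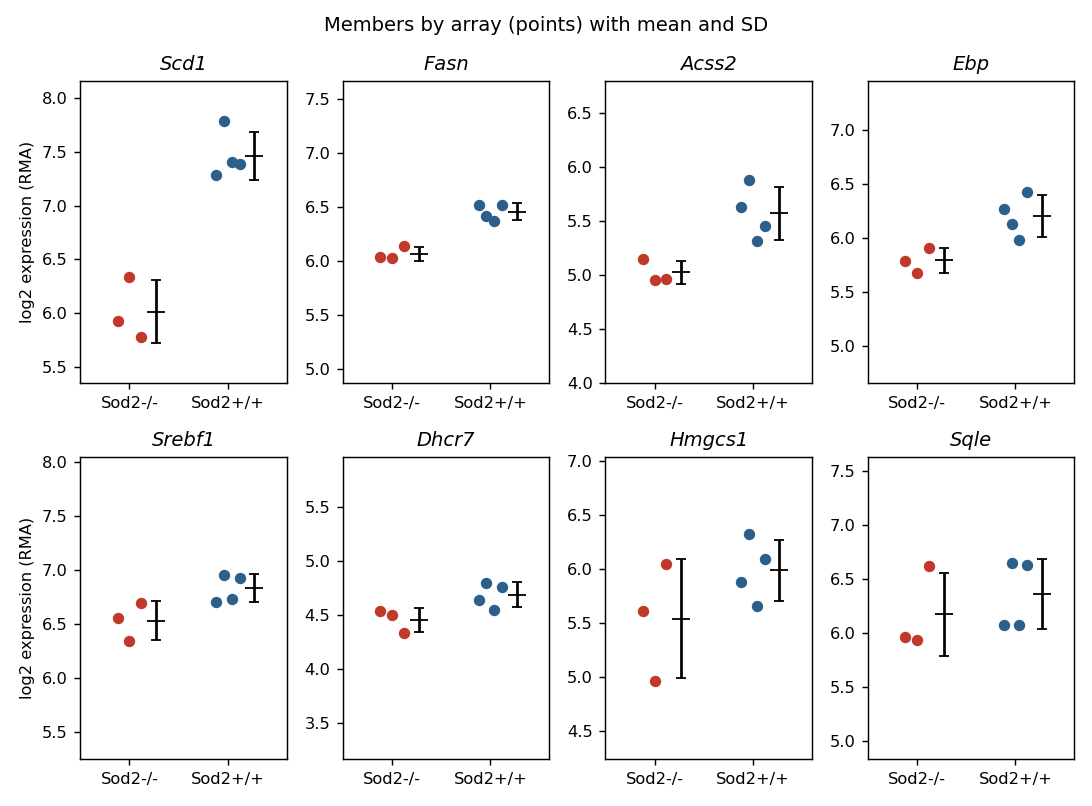
Log2 expression (vertical axis, each panel spanning the same height) of 8 members in each array, Sod2-/- in red and Sod2+/+ in blue, with the mean and SD as a black bar. Scd1 is separated by the widest gap, Fasn, Acss2, Ebp, Srebf1 and Dhcr7 do not overlap, and Hmgcs1 and Sqle do.

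The SREBP factors and their anchors had 0 of 5 members called, where 4.47% of all genes were lower and 0.412% higher. All 5 had negative log2 fold changes (median -0.12). Srebf1 (chromosome 11), whose product drives fatty acid genes above all, had 6.56, 6.34 and 6.70 in Sod2-/- and 6.71, 6.96, 6.73 and 6.93 in Sod2+/+ erythroblasts. The groups barely cleared each other, with 6.70 as the highest Sod2-/- and 6.71 as the lowest Sod2+/+ value, and the log2 fold change of -0.30 (SE 0.11, 95% interval -0.54 to -0.05) was not called (adjusted p = 0.167). After quantile normalization it was -0.12. Srebf2 (chromosome 15), whose product drives the cholesterol genes, had 7.53, 7.45 and 7.70 in Sod2-/- and 7.60, 7.83, 7.52 and 7.33 in Sod2+/+ erythroblasts. Here the groups overlapped throughout (log2 fold change -0.01, 95% interval -0.28 to 0.26, adjusted p = 0.975), and quantile normalization gave 0.23. A dimmer second probe set of Srebf2 gave -0.22 and was not called.

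Scap, the escort of the SREBP precursors, had 5.15, 5.17 and 5.40 in Sod2-/- and 5.47, 5.43, 5.11 and 5.56 in Sod2+/+ erythroblasts (log2 fold change -0.15, adjusted p = 0.540). Its dim second probe set gave 0.09. Insig1, a retention protein whose own gene answers to SREBP, was dim, with 4.26, 4.02 and 4.41 in Sod2-/- and 4.02, 4.59, 4.21 and 4.19 in Sod2+/+ samples (log2 fold change -0.02, adjusted p = 0.953). Both ranges overlapped. Insig2 was at -0.12 (adjusted p = 0.453).

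In the cholesterol route 0 of 16 enzymes was called, where 4.47% of all genes were lower and 0.412% higher. At such shares a list of 16 genes can readily hold no call, so the count does not set these enzymes apart. The 6 of the mevalonate arm had a median log2 fold change of -0.20, and it was -0.08 over the 10 of the squalene and sterol arm. The 95% interval included 0 in 14 of the 16; the exceptions were Ebp and Dhcr7. The lower ends of the intervals ran from -1.01 (Hmgcs1) to -0.04 (Sc5d) and their upper ends from -0.15 (Ebp) to 0.39 (Sc5d). These ends concern differences of the deposited values alone. Cyp51, Msmo1 and Sc5d had means of 4.42, 4.37 and 4.21, under the median of 4.48 over all probe sets. Differences of dim probe sets are shrunk in such values, so these intervals cannot exclude a larger change in RNA.

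Hmgcs1 (chromosome 13), the cytosolic synthase that makes HMG-CoA, had 5.61, 4.96 and 6.05 in Sod2-/- and 5.88, 6.32, 5.66 and 6.09 in Sod2+/+ erythroblasts. On this probe set, the brightest of 5, a single Sod2-/- sample, replicate 35, set most of the difference. The log2 fold change was -0.45 (SE 0.24, 95% interval -1.01 to 0.11, adjusted p = 0.362), -0.16 without that sample and -1.03 with chip lot as a block, where that sample is the only Sod2-/- array in the lot of the Sod2+/+ arrays. The dimmer Hmgcs1 probe sets gave -0.15, -0.39, -0.33 and 0.05, and none was called. The other mevalonate enzymes ranged from -0.27 (Idi1, the isomerase of isopentenyl diphosphate, adjusted p = 0.493) to 0.13 (Mvk, mevalonate kinase, adjusted p = 0.542). Pmvk, the next kinase, was at -0.25, Mvd, the decarboxylase, at -0.12, and Fdps, which makes farnesyl diphosphate, at -0.15.

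Sqle (chromosome 15), the squalene epoxidase, had 5.96, 5.94 and 6.62 in Sod2-/- and 6.08, 6.65, 6.08 and 6.63 in Sod2+/+ erythroblasts. Its values fell at a low and a high level within both genotypes, and the log2 fold change of -0.19 was not called (adjusted p = 0.688). Ebp (chromosome X), the sterol isomerase, had 5.79, 5.68 and 5.91 in Sod2-/- and 6.27, 6.13, 5.98 and 6.43 in Sod2+/+ erythroblasts. Ebp did not overlap between genotypes and was not called (log2 fold change -0.41, SE 0.11, adjusted p = 0.0865), in the main fit or under any of 22 alternatives. Dhcr7 (chromosome 7), the last reductase before cholesterol, did not overlap either, with 4.54, 4.50 and 4.33 in Sod2-/- and 4.64, 4.80, 4.55 and 4.76 in Sod2+/+ samples (log2 fold change -0.23, SE 0.09, adjusted p = 0.186).

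The remaining sterol enzymes lay between -0.25 (Nsdhl, adjusted p = 0.323) and 0.17 (Sc5d, adjusted p = 0.357). Fdft1, the squalene synthase, was at -0.04, Lss, the cyclase that forms lanosterol, at -0.06, Cyp51, its demethylase, at -0.02, Msmo1 at -0.10 and Hsd17b7 at 0.03. Stard4 (chromosome 18), a cytosolic sterol carrier, had 7.04, 6.90 and 7.36 in Sod2-/- and 6.82, 7.42, 6.92 and 7.11 in Sod2+/+ erythroblasts. These overlapped throughout (log2 fold change 0.03, 95% interval -0.33 to 0.39, adjusted p = 0.944). Dimmer Stard4 probe sets gave 0.03 and 0.26, and neither was called.

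Within each genotype many members ranked the arrays alike, and how all genes ranked them was not counted. Of the 16 cholesterol enzymes, Sod2-/- replicate 39 had the highest value of the 3 Sod2-/- samples in 11, and replicate 35 the lowest in 8. Among the 4 Sod2+/+ samples replicate 29 was highest in 10 of the 16 and replicate 33 lowest in 8. The other 17 members followed the same order in the Sod2-/- samples, where replicate 39 was highest in 12 and replicate 35 lowest in 11. Among the Sod2+/+ samples these 17 had replicate 29 highest in 9. There replicate 17 was lowest in 9 and replicate 33 in 6, unlike the order of the cholesterol enzymes. Against the Sod2+/+ mean, 30, 27 and 17 of the 33 members were lower in Sod2-/- replicates 31, 35 and 39, with median deviations of -0.16, -0.19 and -0.00. The Sod2+/+ replicates 17, 29, 33 and 37 had median deviations of -0.04, 0.10, -0.13 and 0.06. The median member in Sod2-/- replicate 39, which carried the C1q signal, therefore lay within the Sod2+/+ range, and those of replicates 31 and 35 lay below it.

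**Figure D3:**
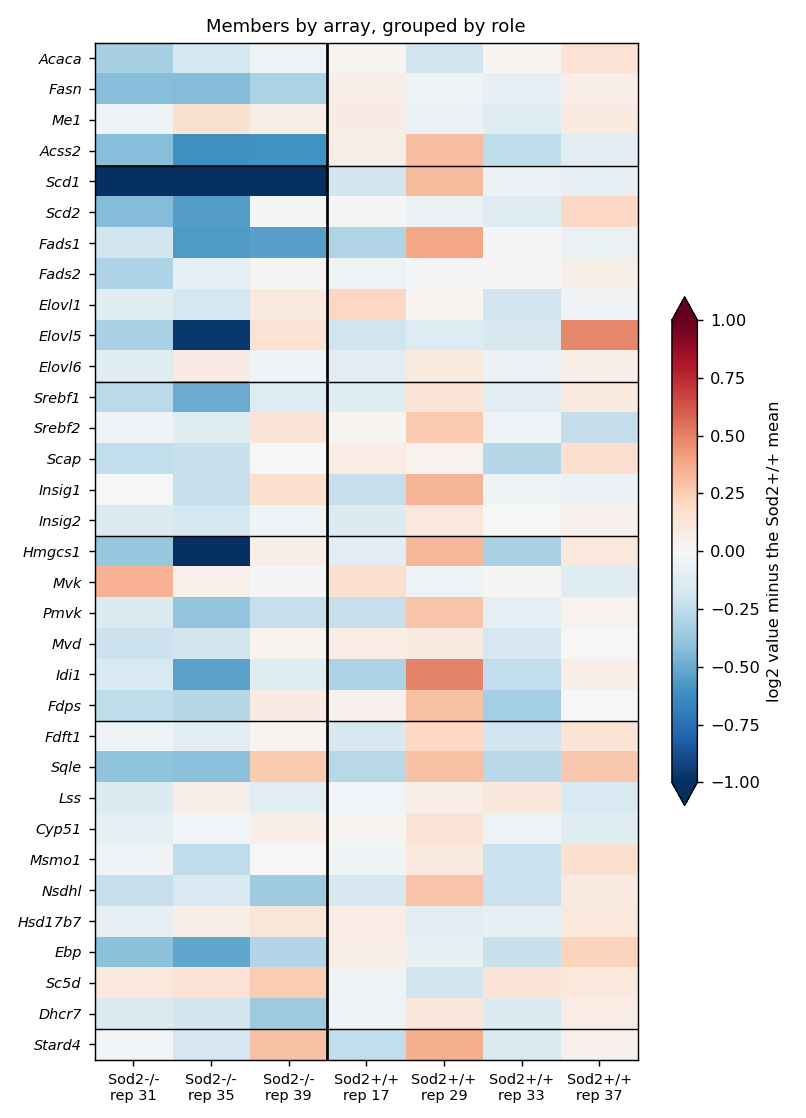
Each row is a member, grouped by role between black lines, and each column an array, Sod2-/- left of the vertical line and Sod2+/+ right of it. Colour is the log2 value minus the mean of the 4 Sod2+/+ arrays, from -1 (blue) to 1 (red), with values beyond that in the end colour. Scd1 is dark blue in all 3 Sod2-/- arrays, while Sod2+/+ replicate 29 holds the highest Sod2+/+ value in 10 of the 16 rows of cholesterol enzymes.

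Around the 33 genes, other enzymes of fatty acid synthesis included larger changes than most members. Of 19 measured (20 listed), 5 were lower (26.3%, against 4.47% of all genes), 0 were higher and 14 were not called. The 5 had means from 6.05 (Hacd1) to 9.72 (Tecr), and lower calls were more common among bright genes in general. Of all genes with a mean log2 value from 4 to 5, 21 of 5915 were lower. From 6 to 7 it was 242 of 2208, and from 7 to 8 it was 200 of 1422. The median over the 19 was -0.03. Acly (ATP citrate lyase), which splits exported citrate into cytosolic acetyl-CoA, had 6.65, 6.28 and 6.38 in Sod2-/- and 7.41, 7.31, 7.37 and 7.66 in Sod2+/+ erythroblasts. It was 2.00-fold lower without overlap (log2 fold change -1.0, SE 0.11, adjusted p = 0.00946) and stayed called in all 7 fits that left out an array. A second bright Acly probe set gave -1.04 (adjusted p = 0.0973), and dim ones lay near 0, which brought the mean of its probe sets to -0.35. The citrate carrier Slc25a1, which feeds it, was at -0.11 (adjusted p = 0.501).

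The other 4 lower genes act in the elongation cycle of the endoplasmic reticulum, which completes the lengthening of the chain after each elongase. Hacd1, a hydroxyacyl-CoA dehydratase, had 5.59, 5.39 and 5.16 in Sod2-/- and 6.36, 6.59, 6.44 and 6.78 in Sod2+/+ erythroblasts. It was 2.24-fold lower (log2 fold change -1.17, SE 0.13, adjusted p = 0.00848), with -1.09 on its second probe set, and stayed called in all 7 fits. Hacd2, of the same family, had 6.59, 5.74 and 6.24 in Sod2-/- and 7.18, 7.39, 6.91 and 7.34 in Sod2+/+ erythroblasts. Its log2 fold change was -1.01 (SE 0.19, adjusted p = 0.0339), on a spread that was wide in Sod2-/- samples, and its dim second probe set gave 0.05.

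Hacd3 and Tecr, which were described after their values were seen, were at -0.67 (SE 0.14, adjusted p = 0.0426) and -0.72 (SE 0.14, adjusted p = 0.0354). Tecr, the enoyl-CoA reductase that closes the cycle, had 9.55, 9.39 and 9.0 in Sod2-/- and 10.06, 10.24, 9.90 and 9.92 in Sod2+/+ erythroblasts. All of its Sod2-/- values lay below all Sod2+/+ values, and a second probe set gave -0.76 (adjusted p = 0.0413). Hsd17b12, the ketoacyl-CoA reductase of the same cycle, was not called (log2 fold change -0.24, adjusted p = 0.219). Hacd2, Hacd3 and Tecr each kept their call in 2 of 7 fits without an array. All of these lost it without Sod2-/- replicate 35 or 39 or Sod2+/+ replicate 29 or 37, Hacd2 and Tecr also without Sod2+/+ replicate 17, and Hacd3 without Sod2+/+ replicate 33.

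**Figure D4:**
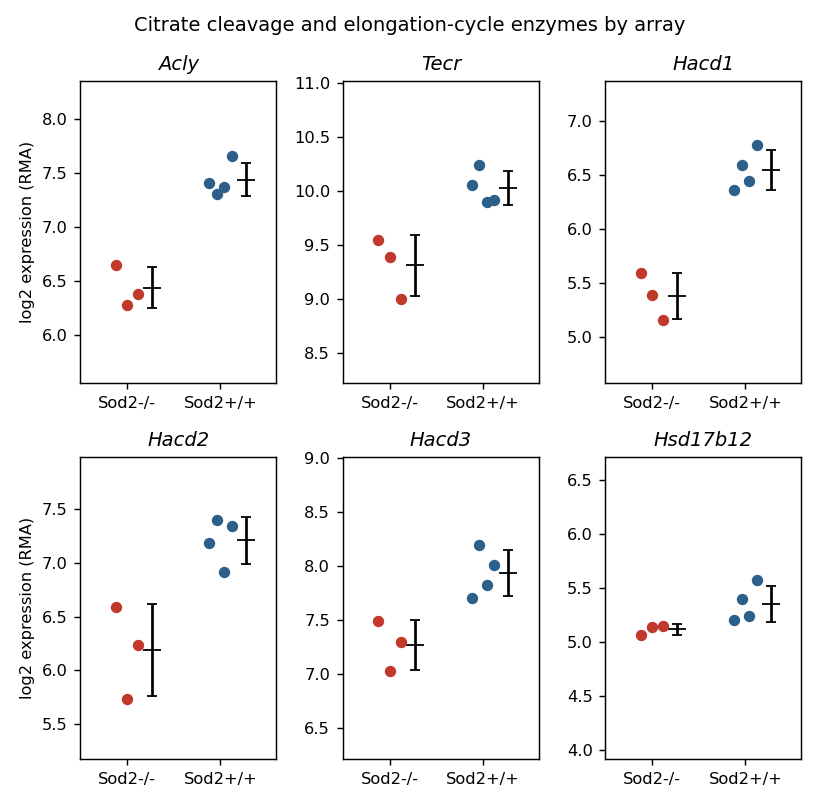
Log2 expression (vertical axis, each panel spanning the same height) of Acly and 5 enzymes of the elongation cycle in each array, Sod2-/- in red and Sod2+/+ in blue, with the mean and SD as a black bar. All 3 Sod2-/- values lie below all 4 Sod2+/+ values in each of the 6 genes, by the widest margins in Acly and Hacd1.

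The neighbouring lipid lists are set against the 4.47% of all genes that were lower, a share that takes no account of brightness. The other sterol and isoprenoid enzymes had 0 of 6 called (10 listed, median log2 fold change -0.20), and the proteins that process or degrade SREBP 0 of 14 (15 listed, median -0.10). Of 14 measured genes of lipid uptake, storage and export (17 listed), 1 was lower (7.14%), Scarb1, the HDL receptor (log2 fold change -0.54, adjusted p = 0.0455). Among 22 acyl-CoA synthetases and glycerolipid enzymes (23 listed, median -0.16) 2 were lower (9.09%): Acsl5, a long-chain acyl-CoA synthetase (-0.92, adjusted p = 0.0187), and Lpin1, a phosphatidate phosphatase (-0.68, adjusted p = 0.0169).

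A pair of lists concerns fatty acids inside mitochondria, and the shares again take no account of brightness. Of 8 genes of mitochondrial fatty acid synthesis and lipoylation (9 listed, median -0.29), 2 were lower (25%, against 4.47% of all genes): Ndufab1, the mitochondrial acyl carrier protein and a complex I subunit (-0.66, adjusted p = 0.0243), and Mcat, which loads malonyl groups on it (-0.63, adjusted p = 0.0278). Of 17 genes of mitochondrial fatty acid oxidation (18 listed, median -0.25), 2 were lower (11.8%), Acadm, the medium-chain acyl-CoA dehydrogenase (-0.52, adjusted p = 0.0286), and Cpt2, of the carnitine shuttle (-0.46, adjusted p = 0.0406). One was higher (5.88%, against 0.412% of all genes), Eci1, an enoyl-CoA isomerase (0.79, adjusted p = 0.0219), where Sod2-/- samples had 7.06, 6.84 and 6.68 and Sod2+/+ samples 6.12, 6.13, 5.80 and 6.22.

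The calls in these neighbouring lists rested on single arrays more than that of Scd1. Without Sod2-/- replicate 35 none of Scarb1, Acsl5, Lpin1, Ndufab1, Mcat, Acadm, Cpt2 and Eci1 passed, and over all genes 64 were lower in place of 813. Without Sod2+/+ replicate 37, Acsl5, Scarb1, Ndufab1, Mcat, Acadm and Cpt2 were not called (110 genes lower in all). Without Sod2+/+ replicate 29, Scarb1, Ndufab1, Mcat, Acadm, Cpt2 and Eci1 were not called (143 lower in all). Mcat, Acadm and Cpt2 also lost the call without Sod2-/- replicate 31 or 39, Scarb1 without Sod2-/- replicate 39 or Sod2+/+ replicate 17 or 33, and Cpt2 without Sod2+/+ replicate 17 or 33.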

How the data were processed

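RNA of 7 sorted erythroblast samples had been hybridised to Affymetrix mouse arrays. As deposited, the values are on a log2 scale, summarised by the authors from probe intensities with RMA (robust multi-array averaging); the submitters' processing notes also name GCOS 1.3.037. The sources used here do not say whether the remaining Sod2-/- array of the study, not analysed here, took part in that run. No further normalization or filter was applied. RMA shrinks differences of dim probe sets, and precision is limited by how few arrays there are.

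After removal of 64 controls, 45037 probe sets were tested with limma (version 3.58.1, R 4.3.3, lmFit followed by eBayes, genotype as the only term, Benjamini-Hochberg over all probe sets, threshold 0.05). Fold changes are Sod2-/- minus Sod2+/+. Platform annotation matched 34945 probe sets to 1 gene, 932 to several and 9160 to none; 99.1% of its gene identifiers were in the RefSeq table (GRCm38.p6). Each gene was read from its brightest probe set matched to it alone, and the 33 members had 76. Those of Elovl5, Myb and Igll1 (suffix x) and of Mvd, Hacd1 and Ndufab1 (suffix s) hold probes that can match other transcripts. The procedure was tested on simulated data. Identical values were 0.109 to 0.173% of probe sets between arrays of a genotype, so no array was a copy of another. Each array was counted as 1 sample, although this check cannot tell whether they held RNA of separate mice.

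Members, lists and tests were chosen with earlier results of these data known. In full are given the members that passed, and Srebf1, Srebf2, Scap, Insig1, Fasn, Acaca, Hmgcs1, Sqle and Stard4, and from each neighbouring list up to 3 genes past the threshold in each direction. Array values of Acss2, Ebp, Dhcr7, Elovl5, Tecr and other genes outside this rule were added after they were seen. Alternatives were the methods' t-test with equal or unequal variances, quantile normalization, centring of each array, array weights, a trended and robust eBayes, an offset of 32, bright probe sets alone (mean above 4.48), fluidics station and chip lot as blocks or alone, the mean of a gene's probe sets, and leaving out each array.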

Additional observations from a re-analysis of the deposited data

Results flagged for a closer look

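In 1 case a single array stood apart from the rest of its group. Elovl5 was 6.40 in Sod2+/+ replicate 37, where the other 3 Sod2+/+ samples had 5.72 to 5.79, so that the gap took up 0.90 of the group's range. About 1 in 20 groups is expected to pass the cut-off used for this flag by chance. In all, 33 genes were looked at in the Sod2+/+ samples, the only group with enough arrays. The second Elovl5 probe set had 6.18 in the same array.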

How the results depend on the processing

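The count of 2 lower members became 0 with the methods' t-test (equal or unequal variances), 0 within fluidics station 1, fluidics station 2 or the chip lot that holds both genotypes, 1 after quantile normalization and 1 with chip lot as a block, and ran from 1 to 3 when each array was left out. Within either station 0 genes of all were lower, and within that lot, which has 1 Sod2-/- array, 294 were. Over all genes the t-test called 2 lower with equal variances and 0 with unequal. No member was higher under any of the 22 alternatives; at a raw p under 0.05 in limma 0 were in the fit reported, and 1 after quantile normalization and with the mean of a gene's probe sets. The median log2 fold change of the members ran from -0.22 (station 1 alone) to -0.08 (offset of 32, and station 2 alone), within the SD of 0.10. Scd1 was called in 17 of 22 alternatives, Fasn in 7 and Acss2 in 5, and the other 30 members in 0; 21 of the 33 kept their sign in all. Over all genes the calls were 813 lower and 75 higher, and 506 lower and 260 higher after quantile normalization. Fluidics module as a random block, chosen after seeing the data, gave 3 lower members. All Sod2-/- and Sod2+/+ arrays ran in different fluidics modules, so module and genotype cannot be told apart, and the cause of these shifts was not tested. No paired analysis was possible because the genotypes share no replicate number, and although samples were sorted in pairs, the sources used here do not say which samples formed a pair.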
